A study of Mus musculus with 6 samples.

Results

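Bile acid synthesis in the liver was described through 10 genes for its enzymes, chosen by name as the members of the pathway and taken from the deposited tables of 20673 genes. All 10 were present and all 10 passed the filter on low counts, which left 13105 genes for testing. The RNA came from whole livers of 6 C57BL/6J mice, a common inbred strain, with 1 library per mouse. 3 mice ate a regular diet (RD) and 3 ate a high-cholesterol diet (HCD) for 3 days. The HCD differed from the RD in cholesterol, in fat and in added sodium cholate, so that effects of these parts of the diet cannot be told apart. The labels name no engineered allele and no other treatment in either group. The study used young adult mice of both sexes, and the sex of each of these mice was not given in the sources used here.

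Bile acids are the main products of cholesterol breakdown in the liver, and hepatocytes make them by a pair of routes. In the classic route Cyp7a1 acts on cholesterol in the endoplasmic reticulum and Cyp8b1 adds the hydroxyl group that marks cholic acid, while in the alternative route Cyp27a1 oxidises the side chain in mitochondria and Cyp7b1 then hydroxylates the oxysterol. The routes share the enzymes that change the sterol nucleus, shorten the side chain and join the acid to an amino acid. Bile acids hold back their own synthesis through the nuclear receptor FXR (Nr1h4), which raises the repressor SHP (Nr0b2) in the liver and a growth factor in the intestine that acts on hepatocytes through Fgfr4 and Klb.

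The livers gave 13771630 to 23129576 counts on genes with RD and 13935491 to 18545549 with HCD, so that a floor of 3 counts lay between 0.13 and 0.243 CPM, which are counts scaled to library size. The spread between livers, with a biological coefficient of variation of 27.8%, was far above counting error and sets the precision. The p-values measure the spread between these 6 livers. 1 library stood apart: HCD replicate 1 had 5032 counts of Xist and none of 4 Y-linked genes, whereas the other 5 livers had no Xist counts and 1075 to 2666 Y-linked counts. Values without it are given beside the results that it moves most. Of 9 hepatocyte markers 8 were in the tables, with summed levels of 95167 to 126972 CPM with RD and 100011 to 140821 CPM with HCD, and none was called. Most of that sum is Alb, while the median log2 fold change of the 8 markers was -0.24 (-0.10 without HCD replicate 1). Fgb and Hnf4a were lower in every HCD liver, and Ttr was higher in every HCD liver.

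The enzymes of the classic route were lower with HCD and those shared by the routes were not called in either direction. Of the 10 enzymes, 2 fell (Cyp8b1 and Cyp7a1) and 0 rose at an adjusted p under 0.05 in edgeR's quasi-likelihood test. Across all genes tested, 1.32% were called lower and 1.95% higher. In 4 enzymes, the cytochromes P450 Cyp7a1, Cyp8b1, Cyp27a1 and Cyp7b1, every HCD liver was below every RD liver, and 27.6% of all genes tested had diets that did not overlap in one direction or the other. The median log2 fold change was -0.21 over the 10 enzymes (-0.12 without HCD replicate 1) and 0.007 over all genes tested. Since whole livers were sequenced, fewer cells of a type and less RNA per cell cannot be told apart.

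**Figure D1:**
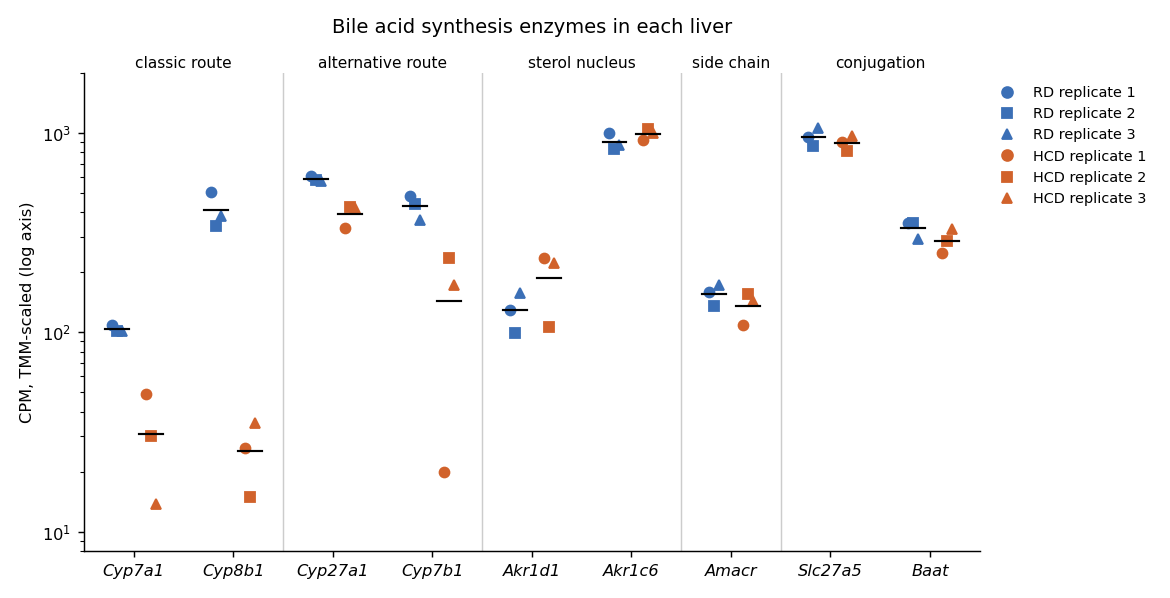
Level of each enzyme except Hsd3b7 in each liver as CPM, which are not scaled to gene length, on a log axis. RD and HCD are in separate colours, with a marker shape for each replicate number and a line at the mean. The diets are separate for Cyp7a1, Cyp8b1, Cyp27a1 and Cyp7b1, where HCD replicate 1 is the lowest point of Cyp7b1, and overlap for the other enzymes shown.

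Cyp8b1, the sterol hydroxylase needed for cholic acid, showed the largest fall of the 10 enzymes. Its gene (ENSMUSG00000050445) lies on the minus strand at chr9:121914356-121916305 of GRCm38 and has a single exon of 1950 bases. The 250 bases before its start are shown because this gene carries the largest difference, with the promoter of Cyp27a1, the enzyme at the entry of the alternative route, for comparison. Both are RefSeq sequences of GRCm38.p6 read along the gene, from chr9:121916306-121916555 on the minus strand and from chr1:74713285-74713534 on the plus strand. Positions are counted back from the RefSeq start, which for Cyp27a1 differs from the GENCODE start given with that gene. Capitals mark matches to motifs that were searched on both strands.
Cyp8b1: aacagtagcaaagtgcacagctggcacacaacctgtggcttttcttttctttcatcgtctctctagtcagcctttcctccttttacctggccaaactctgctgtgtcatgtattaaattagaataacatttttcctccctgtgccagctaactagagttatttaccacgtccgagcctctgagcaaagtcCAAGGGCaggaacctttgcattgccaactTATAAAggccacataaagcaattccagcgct
Cyp27a1: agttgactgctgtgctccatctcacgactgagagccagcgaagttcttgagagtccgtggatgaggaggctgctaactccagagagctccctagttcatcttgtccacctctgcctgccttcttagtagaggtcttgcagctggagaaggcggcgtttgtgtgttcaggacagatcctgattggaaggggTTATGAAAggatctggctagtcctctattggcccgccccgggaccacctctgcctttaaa
In the Cyp8b1 promoter the capitals are a match to CAAGGNC, the core of the element bound by Nr5a2, at positions -60 to -54 from the start, and a TATAAA box at -31 to -26. In the Cyp27a1 promoter they are a match to TTATGNAA, a form of the element read by clock output factors of the PAR-bZIP type, at -60 to -53. CAAGGNC occurred in 15.0% of 32851 promoters of this length, TATAAA in 12.4% and TTATGNAA in 3.1%. No match in either window was found for AGGTCA, which nuclear receptors bind and which occurred in 14% of all promoters. The same held for the E-box of the clock, CACGTG (6.0% of promoters), and for the FXR element IR-1 (2 promoters). Promoters of 5 of the 10 enzymes were matched in the table, the others being Hsd3b7, Akr1d1 and Akr1c6. Akr1c6 held CAAGGNC at -42 to -36 and TATAAA at -164 to -159. Akr1d1 held AGGTCA on the opposite strand at -232 to -227 and at -210 to -205, and TTATGNAA at -8 to -1, and Hsd3b7 held none of the motifs. A match describes the letters in a window and says nothing of binding in these livers.

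In the RD livers Cyp8b1 was at 507, 342 and 383 CPM, and in the HCD livers at 26.3, 14.9 and 35.2 CPM. The diets were far apart, and the highest HCD liver was well under the lowest RD liver. The mean level was 16.1-fold higher with RD, at 410 ± 85.7 CPM (SD, n = 3) against 25.4 ± 10.2 CPM (SD, n = 3). The log2 fold change was -4.01 (SE 0.33, 95% interval -4.76 to -3.26), with an edgeR adjusted p of 0.00226. Cyp8b1 was called in 15 of 15 alternatives, with log2 fold changes of -4.32 to -3.75 when each liver was left out.

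Cyp7a1, the rate-limiting enzyme of the classic route, also fell. The gene (ENSMUSG00000028240) lies at chr4:6265612-6275633 on the minus strand. Its level was 109, 102 and 102 CPM with RD and 48.9, 30.0 and 13.7 CPM with HCD. The RD livers were close together, whereas the HCD livers were spread widely and all lay below them. The mean was 3.38-fold higher with RD, at 104 ± 3.67 CPM (SD, n = 3) against 30.9 ± 17.6 CPM (SD, n = 3). The log2 fold change was -1.75 (SE 0.37, 95% interval -2.60 to -0.90), with an edgeR adjusted p of 0.0453, close to the threshold. The call was held in 7 of 15 alternatives. It was lost without RD replicate 1 (edgeR adjusted p = 0.15), RD replicate 2 (0.151), RD replicate 3 (0.092) or HCD replicate 2 (0.10), while the direction stayed, with log2 fold changes of -2.25 to -1.41.

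Within each liver the levels of the classic route enzymes were set against each other per exon length. Cyp8b1 stood at 9.99, 7.15 and 8.04 times Cyp7a1 in the RD livers and at 1.15, 1.06 and 5.49 times in the HCD livers. The ratio was lower in every HCD liver, and HCD replicate 3, the liver with the least Cyp7a1, came nearest to the RD livers. The log2 ratio fell by 2.14 on average (exact two-sided permutation test, p = 0.10, the smallest that 3 against 3 livers allow, and 0.20 after adjustment over 4 ratios). When each liver was left out, the log2 difference was -2.91 (without HCD replicate 3) to -1.72 (without HCD replicate 2). Without any 1 of the RD livers the exact permutation p was 0.20.

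**Figure D2:**
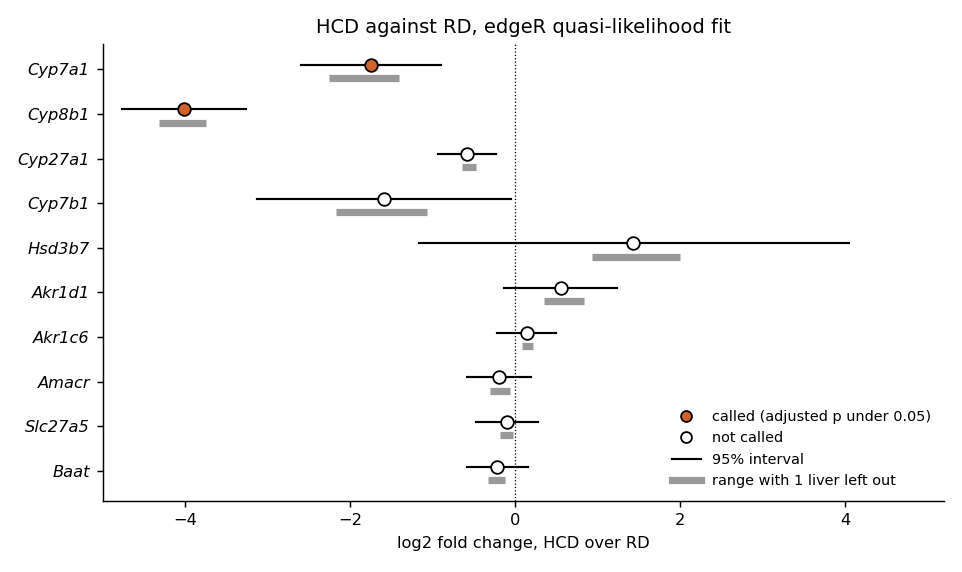
Log2 fold change of each enzyme, HCD over RD, with the 95% interval of the edgeR fit as a thin line and the range over fits with 1 liver left out as a grey bar; filled points are called at an adjusted p under 0.05. Cyp8b1 at -4.01 and Cyp7a1 at -1.75 are the filled points, and the intervals of Cyp27a1 and Cyp7b1 end below 0.

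The enzymes of the alternative route were lower in every HCD liver, but neither passed the test across all genes. Cyp27a1, the mitochondrial sterol hydroxylase, lies at chr1:74713574-74737892 on the plus strand (ENSMUSG00000026170). It had 611, 578 and 576 CPM with RD and 332, 425 and 421 CPM with HCD. The diets did not overlap, and the difference was small beside that of Cyp8b1. The mean was 588 ± 19.6 CPM (SD, n = 3) with RD and 393 ± 52.4 CPM (SD, n = 3) with HCD, 1.5-fold higher with RD. The log2 fold change was -0.58 (SE 0.15, 95% interval -0.94 to -0.23), with an edgeR adjusted p of 0.0834. DESeq2 alone of 15 alternatives called it, at -0.60 and an adjusted p of 0.00577.

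Cyp7b1, the oxysterol hydroxylase, lies at chr3:18071950-18243338 on the minus strand (ENSMUSG00000039519). It had 481, 442 and 366 CPM with RD and 19.9, 236 and 172 CPM with HCD. All HCD livers were below the RD livers, and HCD replicate 1 was far below the other HCD livers. The RD mean was 21.6 times the level of HCD replicate 1 and 2.10 times the mean of HCD replicates 2 and 3. With all livers the log2 fold change was -1.59 (SE 0.68, 95% interval -3.13 to -0.05), with an edgeR adjusted p of 0.226. Without HCD replicate 1 the log2 fold change was smaller, at -1.07, and Cyp7b1 was called (edgeR adjusted p = 0.0398).

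Cyp7b1 is known to be higher in livers of male mice, and HCD replicate 1 is the liver with Xist and no Y-linked counts. The sum of 7 other male-biased liver genes was 5650 to 7816 CPM with RD and 85.8, 8128 and 5590 CPM in HCD replicates 1, 2 and 3. The sum of 9 female-biased liver genes was 0.0961 to 5.82 CPM with RD and 1760, 0.689 and 4.21 CPM with HCD. Each of the 7 male-biased genes was thus lowest in the liver where Cyp7b1 was lowest. Mup20 and Cyp2d9, with the highest CPM of them, were at 37.1 and 43.6 CPM there and at 2900 CPM or more and 931 CPM or more in the other livers. None of the 7 was called. Without HCD replicate 1 the diets did not overlap for Cyp7b1, at 366 to 481 CPM with RD against 172 to 236 CPM with HCD. The same held for 2 of the 7 male-biased genes, Hsd3b5 (215 to 284 against 95.7 to 206 CPM) and Slco1a1 (422 to 454 against 204 to 308 CPM), while the other 5 overlapped. Across all genes tested, 19.1% were lower in both of these HCD livers than in every RD liver, so that neither count sets Cyp7b1 or the male-biased genes apart. The part of these differences in the Cyp7b1 values was not tested.

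**Figure D3:**
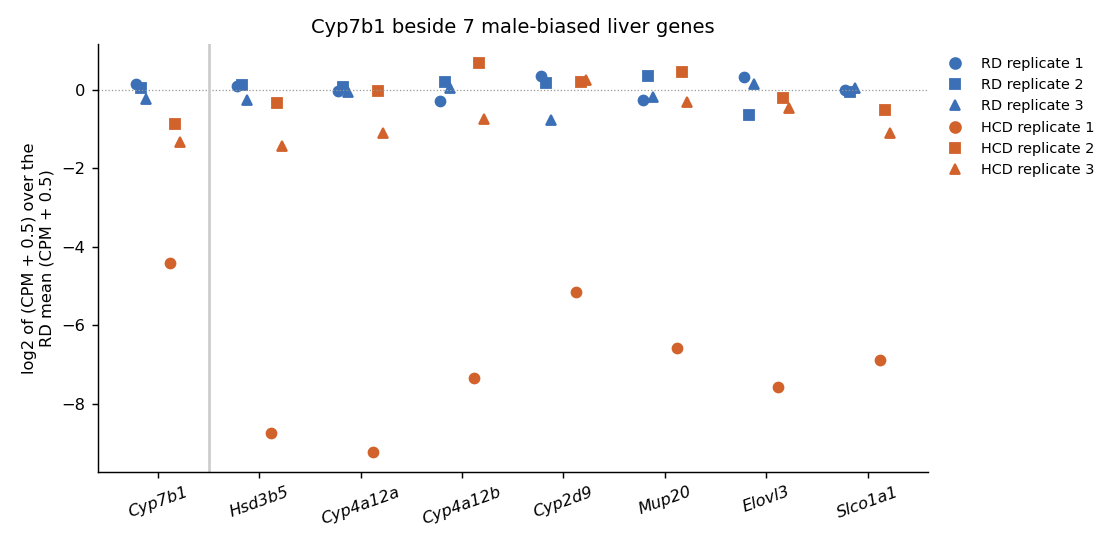
Cyp7b1 and 7 male-biased liver genes in each liver, as the log2 of CPM plus 0.5 over the RD mean, by diet and replicate number. HCD replicate 1 is the lowest point of every gene shown, and in the other HCD livers Cyp7b1 (172 and 236 CPM), Hsd3b5 and Slco1a1 stay below RD.

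The routes were compared through ratios per exon length within each liver. Cyp8b1 stood at 0.924, 0.66 and 0.74 times Cyp27a1 with RD and at 0.0882, 0.0391 and 0.0933 times with HCD. The diets did not overlap, and the mean log2 ratio fell by 3.49 (exact two-sided permutation test, p = 0.10, the smallest possible, adjusted 0.20). Cyp7a1 stood at 0.117, 0.12 and 0.145 times Cyp7b1 with RD and at 1.28, 0.0659 and 0.0414 times with HCD. HCD replicate 1 was above all RD livers and the other HCD livers were below them, so that the mean log2 difference of 0.26 (exact permutation p = 1) has no direction that the livers share. Without HCD replicate 1 it was -1.28 (exact permutation p = 0.10, the smallest that 2 against 3 livers allow).

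**Figure D4:**
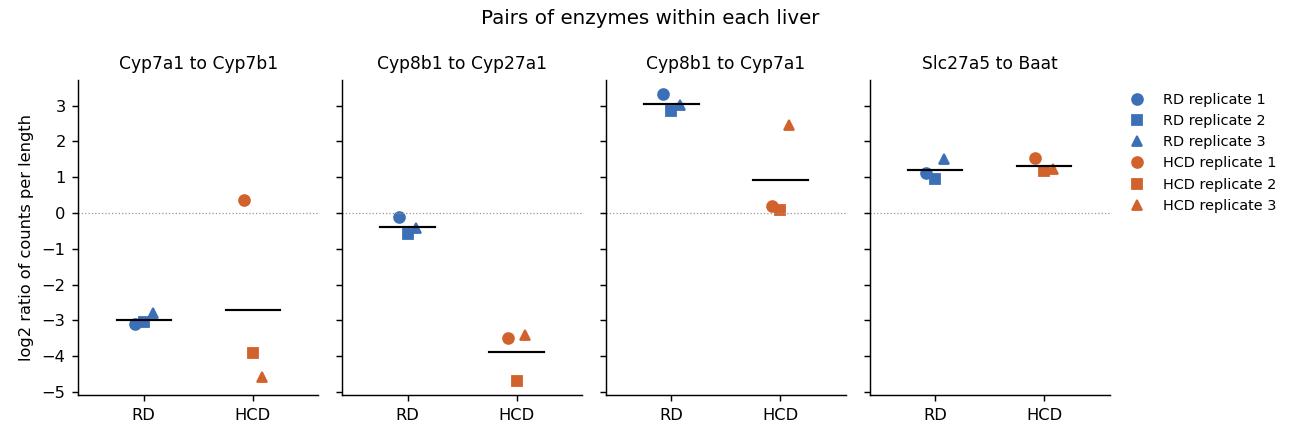
Log2 ratio of counts per exon length for 4 pairs of enzymes in each liver, with a line at the mean of each diet. The ratios of Cyp8b1 to Cyp27a1 and to Cyp7a1 are lower in all HCD livers, the ratio of Cyp7a1 to Cyp7b1 splits the HCD livers, and that of Slc27a5 to Baat overlaps between diets.

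Among the enzymes that change the sterol nucleus, none was called. Akr1d1, the reductase that gives bile acids their bent ring, had 129, 99.3 and 158 CPM with RD and 235, 106 and 222 CPM with HCD. HCD replicate 2 lay within the RD range and the other HCD livers above it. The log2 fold change was 0.55 (SE 0.30, 95% interval -0.14 to 1.23), with an edgeR adjusted p of 0.341, 0.83 without HCD replicate 2 (adjusted p = 0.0849) and 0.35 without HCD replicate 1. Akr1c6, an aldo-keto reductase assigned to the step after Akr1d1, had 998, 826 and 867 CPM with RD and 926, 1042 and 993 CPM with HCD. The diets overlapped, and the log2 fold change was 0.14 (95% interval -0.22 to 0.49, edgeR adjusted p = 0.655). Its transcript is 90.7% identical to that of Akr1c20 over 1337 bases, so that reads of the pair may be assigned uncertainly.

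Hsd3b7, the dehydrogenase that acts early in both routes, had few counts in every liver. It had 8, 9 and 2 counts with RD and 31, 0 and 16 counts with HCD. In the GENCODE M21 annotation only 23 of its 2769 exon bases lie in no other gene, since Gm49388 on the same strand and 9430064I24Rik on the opposite strand cover the rest. No counts of Gm49388 were analysed here, and 9430064I24Rik had 0 to 5 counts per liver. The part of this overlap in the low counts of Hsd3b7 was not tested. The diets overlapped, and the log2 fold change was 1.43 (95% interval -1.17 to 4.04, edgeR adjusted p = 0.509).

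Amacr, the racemase that prepares the side chain for shortening, and the conjugating enzymes overlapped between diets. Amacr had 159, 135 and 173 CPM with RD and 109, 156 and 143 CPM with HCD, with a log2 fold change of -0.20 (95% interval -0.59 to 0.19, edgeR adjusted p = 0.55) and of -0.06 without HCD replicate 1. Slc27a5, the ligase that activates bile acids with coenzyme A, had 957, 860 and 1058 CPM with RD and 904, 809 and 970 CPM with HCD. Baat, the transferase that joins them to taurine or glycine, had 353, 355 and 295 CPM with RD and 249, 286 and 328 CPM with HCD. Neither conjugation enzyme separated the diets. Their log2 fold changes were -0.10 (95% interval -0.47 to 0.27, edgeR adjusted p = 0.767) and -0.22 (95% interval -0.58 to 0.15, edgeR adjusted p = 0.476), intervals that reach no further than -0.58. The log2 ratio of Slc27a5 to Baat differed by 0.12 (exact two-sided permutation test, p = 0.5, adjusted 0.667).

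On the scale of FPKM, fragments per kilobase of gene length scaled to the library, the order of the enzymes changed with diet. This scale allows levels of different genes to be compared. With RD the order ran from Akr1c6 (mean 645, 583 to 714 over livers) and Slc27a5 (575, 506 to 648) through Cyp27a1 (395, 381 to 409), Cyp8b1 (308, 252 to 378), Cyp7b1 (289, 252 to 323) and Baat (251, 227 to 265) to Amacr (87.5), Akr1d1 (65.1) and Cyp7a1 (36.5). The ranges of Akr1c6 and Slc27a5 overlapped, as did those of Cyp8b1, Cyp7b1 and Baat and those of Amacr and Akr1d1, so that these neighbours were not separate. With HCD Cyp8b1 went from rank 4 to rank 8, with a mean of 19.5 FPKM (11 to 27.1), next to Cyp7a1 at 11 FPKM (4.92 to 17.7), whose range it overlapped. Akr1c6, Slc27a5 and Cyp27a1 kept ranks 1, 2 and 3. Hsd3b7 stood last in both diets.

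The other genes of the pathway were taken from lists of further synthesis genes, regulators, FXR targets and transporters. Of 15 other synthesis genes, 14 were tested and 0 were called, with log2 fold changes from -0.52 (Star) to 1.19 (Cyp46a1) and a median of 0.07 (0.08 without HCD replicate 1). Por, which passes electrons to the microsomal cytochromes P450, was at 186, 164 and 261 CPM with RD and 533, 385 and 243 CPM with HCD (log2 fold change 0.93, edgeR adjusted p = 0.127). Of 16 regulators tested, 1 rose and 1 fell, with a median of 0.08 (0.00 without HCD replicate 1). The riser was Nr0b2, the repressor SHP, at 24.4, 44.7 and 37.5 CPM with RD and 89.2, 69.4 and 111 CPM with HCD. All HCD livers were above the RD livers, and the log2 fold change was 1.34 (SE 0.25, edgeR adjusted p = 0.0303). Rxra, the partner of FXR and of LXR, fell from 522, 558 and 468 CPM with RD to 298, 331 and 335 CPM with HCD, with a log2 fold change of -0.68 (SE 0.14, edgeR adjusted p = 0.0449). The call of Nr0b2 was held without HCD replicate 2 alone (edgeR adjusted p = 0.0369) and was lost without each other liver (0.0502 to 0.112), while that of Rxra was lost without any 1 of the 6 livers (0.0673 to 0.193). The receptors Nr1h4 (log2 fold change -0.08, adjusted p = 0.865), Nr5a2 (-0.18, adjusted p = 0.602) and Hnf4a (-0.36, adjusted p = 0.279) were not called.

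Of the FXR targets outside synthesis, Nr0b2 and Slc51b were called and Abcb4, Abcb11 and Mafg were not, while Slc51a did not pass the filter on low counts. Slc51b, a subunit of the transporter that exports bile acids across the basolateral membrane, had 0, 1 and 4 counts with RD and 60, 37 and 20 counts with HCD. It passed the filter only through the HCD livers, and its call is given as a description. The summed level was 29.1 times that of RD (exact interval 12.1 to 91.4, counting error only), and the edgeR adjusted p was 0.0258. It was called only without RD replicate 3 (0.0468) when livers were left out, and otherwise reached 0.0565 to 0.132. Abcb4, the phospholipid exporter of the bile canaliculus, was higher in all HCD livers at 317 ± 31.4 against 211 ± 37.3 CPM (SD, n = 3 each), with a log2 fold change of 0.58 (edgeR adjusted p = 0.107). Abcb11, the bile salt export pump, was at -0.04 (adjusted p = 0.925). Mafg was at 0.13 (adjusted p = 0.599). No other bile acid transporter tested was called, with log2 fold changes from -1.35 (Slco1a1) to 1.66 (Slco1a4). HCD replicate 1 was the extreme liver in both. Slco1a4 was at 11.4 to 51.7 CPM with RD and 238, 24.1 and 40.7 CPM with HCD, and Slco1a1 at 422 to 454 CPM with RD and 3.23, 308 and 204 CPM with HCD.

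**Figure D5:**
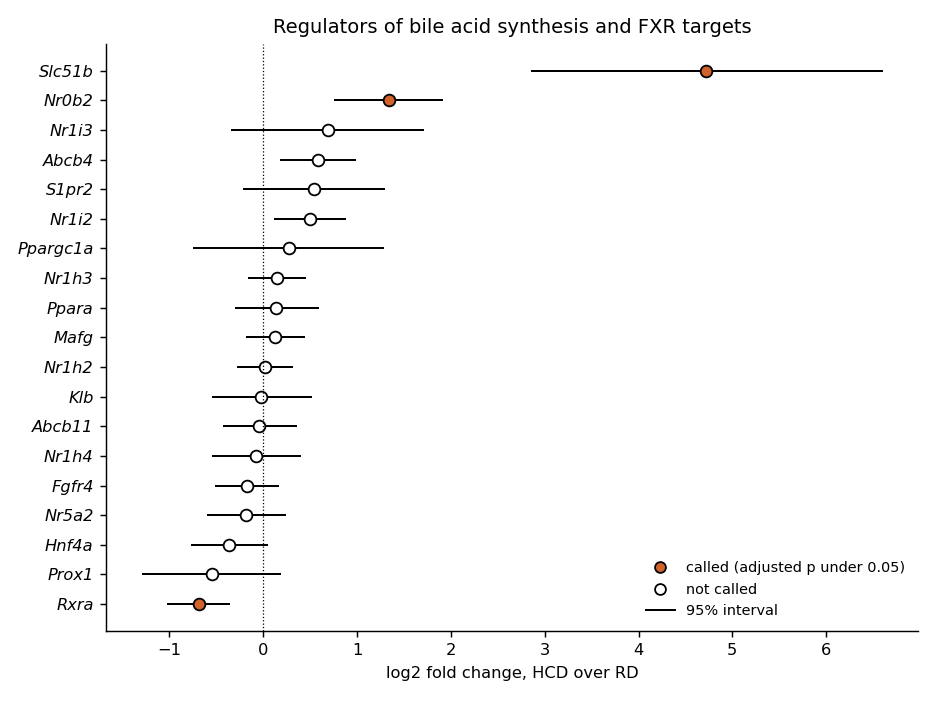
Log2 fold change, HCD over RD, with the 95% interval of the edgeR fit, for the tested regulators of bile acid synthesis and FXR targets; filled points are called at an adjusted p under 0.05. Slc51b at 4.72, Nr0b2 at 1.34 and Rxra at -0.68 are the filled points, where Slc51b had 5 counts in all with RD so that its value depends on the prior count of the fit, and the receptor gene Nr1h4 lies at -0.08.

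Cyp7a1 and Cyp8b1 are known to vary over the day and with inflammation and place in the lobule, and lists for these were read in the same fit. Of 14 clock genes tested 0 were called, but 3 were higher and 5 lower in all HCD livers, where 27.6% of all genes tested had diets that did not overlap. Per1 (log2 fold change 1.67, edgeR adjusted p = 0.0566) and Npas2 (1.26, 0.0797) were higher in each HCD liver, and Nr1d2 (-0.95, 0.0522) and Per2 (-1.08, 0.0665) were lower. Nfil3 and Clock, which had the highest CPM of the list (not scaled to gene length), were at 0.13 and -0.36 on the log2 scale (edgeR adjusted p = 0.768 and 0.205). Nr1d1, the clock repressor REV-ERB alpha, was at 53.6, 61.6 and 33.7 CPM with RD and 32.8, 8.13 and 9.81 CPM with HCD (edgeR adjusted p = 0.132). Their part in the results for Cyp7a1 and Cyp8b1 was not tested. Of 9 acute phase genes 1 was called, Saa3, which rose by 2.24 on the log2 scale (edgeR adjusted p = 0.0295) and stayed called only without HCD replicate 1 (0.014) or HCD replicate 2 (0.0369) when livers were left out. Hp and Fgb, with the highest CPM, were at 0.47 and -0.69 (adjusted p = 0.40 and 0.075). 7 of the 9 genes had log2 fold changes above 0, as did 6643 of all 13105 genes tested. The median of the 9 genes was 0.45 (0.87 without HCD replicate 1). The summed level of the list was 11463 to 13689 CPM with RD and 8445, 17359 and 12685 CPM with HCD, and its part in the results was not tested. Neither the 8 pericentral genes (median -0.19, and -0.46 without HCD replicate 1) nor the 8 periportal genes (median -0.02, and 0.02 without it) held a called gene. Cyp2e1 and Glul led the pericentral list by CPM, with log2 fold changes of 0.17 and -0.14 (adjusted p = 0.761 and 0.784), and Ass1 and Pck1 the periportal list at 0.12 and 0.21 (adjusted p = 0.871 and 0.87). No marker of Kupffer, endothelial, stellate, cholangiocyte or lymphocyte populations was called, and only 1 of 5 lymphocyte markers was tested. All 8 Kupffer markers had log2 fold changes above 0 (median 0.86, and 0.62 without HCD replicate 1), with summed levels of 132 to 226 CPM with RD and 187 to 413 CPM with HCD. Of these 8, C1qb alone was higher in every HCD liver, and the others overlapped between diets. All 6 stellate markers were above 0 as well (median 0.51, and 0.34 without that liver), at 182 to 207 and 203 to 320 CPM. The median of the endothelial markers was 0.24 and turned to -0.03 without HCD replicate 1, and that of the cholangiocyte markers was 0.60 and 0.46. The part of these cells in the results for the enzymes was not tested. Red blood cell markers were at 138 to 239 and 177 to 468 CPM, with Hba-a1 and Hbb-bs, which have near-identical copies, called higher, though not without RD replicate 1, RD replicate 2 or HCD replicate 3 (edgeR adjusted p = 0.0743 to 0.112). Alas2, the red blood cell marker with the highest CPM, was at 105, 105 and 154 CPM with RD and 8.24, 97.0 and 119 CPM with HCD (log2 fold change -0.70, adjusted p = 0.612). No marker list had a member at 0 in all livers.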

How the data were processed

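Liver RNA from 3 RD and 3 HCD mice was sequenced in 1 library per mouse, and groups and replicate numbers were taken from the sample labels. The authors deposited whole-number read counts per gene without normalization, and FPKM whose gene lengths match GENCODE M21 exon lengths within 0.1% for at least 95.1% of genes. Per the submitters' processing notes the tools were STAR, HTSeq, DESeq2 and edgeR on GRCm39. The deposited files hold no coordinates, and positions here are those of GENCODE M21 on GRCm38. The log2 fold changes and p-values that the authors deposited were not used.

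Counts were analysed with edgeR 4.0.16 in R 4.3.3: filterByExpr by diet (13105 of 20673 genes), TMM scaling, a two-sided quasi-likelihood F test of diet without covariates, and Benjamini-Hochberg adjustment over all genes tested. CPM are TMM-scaled. A gene is called at an adjusted p under 0.05. Ratios of enzymes used counts plus 0.5 per exon length and exact permutation tests over the 6 livers. The members and gene lists were chosen with earlier results of these data known. All 10 enzymes are named; of the other pathway lists, called members are named, with further regulators and FXR targets that give the range of those lists, and of the acute phase, clock, zonation and male-biased lists the 2 members of highest mean CPM and called members. The other synthesis genes, transporters, clock genes, male-biased genes and cell type markers named beyond this were chosen after their values were seen. Similar transcripts were found with minimap2 2.31 (at least 200 bases, 90% identity). The alternatives were DESeq2 1.42.0, RLE factors, library sizes alone, other filters on low counts, limma-trend 3.58.1 on log2 of FPKM plus 1 or 0.1, removal of a length trend, a replicate block, other thresholds, and each liver left out. The scripts were tested on simulated counts. Figures were drawn with Python 3.11.15 and matplotlib 3.10.9.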

Additional observations from a re-analysis of the deposited data

How the results depend on the processing

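The fit reported called 428 genes, 255 higher and 173 lower. Of the enzymes, 2 were called, and the number was 1, Cyp8b1 alone, with library sizes alone, with limma-trend on FPKM values (added constant 1 or 0.1), with a replicate block and at an adjusted p under 0.01. It was 4 when an unadjusted p up to 0.05 was taken, with Cyp27a1 and Cyp7b1 added, 3 with DESeq2, and 1 to 3 when each liver was left out. The number of genes called was 995 with DESeq2 (554 higher, 441 lower), 649 without a filter on low counts (364 and 285), 251 with the length trend removed (138 and 113), 136 with a replicate block (71 and 65), 40 at an adjusted p under 0.01 (18 and 22), 2739 at unadjusted p up to 0.05 (1453 and 1286) and 36 to 335 when each liver was left out. Library sizes alone gave 319, of which 158 were higher and 161 lower, so that the share of higher calls was 49.5% in place of 59.6%. When each liver was left out, that share was 39.2% (without RD replicate 2) to 59.7% (without HCD replicate 1). The log2 ratio of Cyp7a1 to Cyp7b1 ranged from -1.28 to 1.19 when each liver was left out, and changed sign from 0.26 to -1.28 without HCD replicate 1, the liver with 0.35 against -3.92 and -4.59 in the other HCD livers. Cyp7a1 had an adjusted p of 0.0591 with the replicate block, and the other calls of enzymes stayed as reported under it. Same-numbered livers did not deviate together (correlations -0.076, 0.088 and -0.041), and the labels give no link between them, so that the numbers were not taken as pairs. The direction of every enzyme's log2 fold change was kept under all alternatives in which it was tested. Beyond the loss of livers and of the filter, the cause of these shifts was not tested. With 3 livers per diet the exact tests cannot go below 0.10, and low counts limit Hsd3b7 and Slc51b.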
